A study of Mus musculus with 333 samples.

Results

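Newly formed oligodendrocytes were compared with oligodendrocyte precursor cells (OPCs) in single-cell RNA-seq of wild-type mouse brain. The members were taken from the submitters' cell type labels: 5 of the 333 cells carried the label for newly formed oligodendrocytes and 16 carried the label OPC. All 5 newly formed cells came from mice of postnatal day 12 (P12): cell 13 from thalamus and cells 40, 49, 52 and 56 from visual cortex. The 16 OPCs were 2 cells of embryonic day 18.5 (E18.5) titled as thalamus, whose source field names visual cortex, 10 cells of P12 (6 from hippocampus and 4 from visual cortex) and 4 cells of adult visual cortex. For the later side of the lineage, the 15 cells of P12 hippocampus labelled as myelinating oligodendrocytes served as a further group. All cells were wild type, enriched by FACS with a gate that is not given in the sources used here, and captured on a Fluidigm C1 chip. The design gives 5 mice per age but no label ties a cell to a mouse, so each group counted as 1 sample. No p-value or standard error was therefore computed, and differences are given as levels in every cell, as pooled levels, and as their change when single cells were left out.

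OPCs divide, carry the PDGF receptor Pdgfra and the proteoglycan NG2 (Cspg4), and receive synapses from neurons. When they leave the cell cycle they pass through a short premyelinating stage, in which the cell extends many processes and makes Enpp6, Gpr17 and Bcas1, before surviving cells wrap axons and make myelin proteins in bulk. In the rodent forebrain this stage is known chiefly from the early postnatal weeks.

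Sequencing depth was of the same order in both groups. Totals ran between 1088110 and 1992160 reads in the newly formed cells and between 387332 and 2052340 reads in the OPCs. Cells thinned to 850000 reads held 3159 to 5105 detected genes (median 4519) in the newly formed group and 2068 to 4151 (median 3141) in the 15 OPCs deep enough to be thinned, against 776 to 1049 in the 15 myelinating cells. Without thinning the counts were 3408 to 5293 in newly formed cells, 1364 to 4314 in OPCs and 1011 to 1420 in myelinating cells. A pair of OPCs stood apart: adult OPC 51, the shallowest, had no Pdgfra read, and P12 visual cortex OPC 48 had a summed level of microglia markers of 16623 CPM (reads of a gene scaled to a common library total). No newly formed cell but 7 of the 16 OPCs (4 of the 10 of P12) had marker sums of astrocytes, microglia, endothelial cells or neurons at or above 25% of that class's own median. Of these OPCs, cell 48 passed on the microglia list, at 48.8%. All others passed on the neuron list alone, whose class median of 4796 CPM was the lowest. Adult OPC 51 was at 97.8% of it. None passed on the astrocyte or endothelial list.

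The 250 bases before a RefSeq start of Enpp6 and of Pdgfra are shown because these genes mark opposite ends of the comparison, Enpp6 the newly formed stage and Pdgfra the OPC. Enpp6 spans chr8:46939197-47096762 and Pdgfra chr5:75151322-75198206 of GRCm38.p6. The windows lie on the plus strand at chr8:46986637-46986886 and chr5:75152001-75152250. Capitals mark the matches to CAGCTG, an E-box of the kind read by basic helix-loop-helix factors, and to ACAAAG and ACAATG, of the kind read by SOX factors, searched on both strands.
Enpp6: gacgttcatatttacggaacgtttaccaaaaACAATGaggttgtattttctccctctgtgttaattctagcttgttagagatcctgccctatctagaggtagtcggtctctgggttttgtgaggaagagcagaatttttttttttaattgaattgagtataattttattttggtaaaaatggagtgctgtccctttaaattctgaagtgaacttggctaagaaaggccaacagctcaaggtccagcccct
Pdgfra: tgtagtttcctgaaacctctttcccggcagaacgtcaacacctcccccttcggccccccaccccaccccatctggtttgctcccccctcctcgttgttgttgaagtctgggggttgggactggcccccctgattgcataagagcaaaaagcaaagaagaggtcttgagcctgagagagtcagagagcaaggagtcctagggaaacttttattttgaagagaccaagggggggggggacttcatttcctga
The Enpp6 window held 1 match, to ACAATG, and the Pdgfra window held no match to these letters. Of 32851 RefSeq windows of the same length, 13% held CAGCTG, 16.5% ACAAAG and 10.7% ACAATG. Among 31 windows of 22 newly formed marker genes the counts were 3, 6 and 3 windows, and among 28 windows of 19 OPC marker genes they were 3, 8 and 3.

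Enpp6, a choline-specific phosphodiesterase, separated the groups without overlap. It had 7286, 9222, 5589, 3118 and 6606 CPM in newly formed cells 13, 40, 49, 52 and 56, against a lowest, median and highest value of 0, 0 and 3.09 CPM in the OPCs. A single OPC, P12 visual cortex cell 57, had Enpp6 reads, also after thinning (5 of 5 newly formed cells against 1 of 15 OPCs). The reads pooled over each group gave 5959.6 CPM in newly formed cells (95% Poisson interval 5903 to 6017) and 0.195 CPM in OPCs (0.0530 to 0.498, from 4 reads), intervals that cover counting error only. On the log2 scale with 1 CPM added to each pooled level, which is used for every ratio here, newly formed cells were higher by 12.28 against all OPCs, 12.13 against those of P12 and 11.61 within P12 visual cortex. In the 312 other cells of the series, Enpp6 reached 100 CPM in 7, of which 4 were P12 and 2 were adult myelinating oligodendrocytes, with a highest value of 3061 CPM in a P12 myelinating cell.

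Gpr17 and Bcas1 did not separate the groups. Gpr17, a receptor of the premyelinating stage, had 2075, 3344, 1636, 12394 and 4865 CPM in newly formed cells 13, 40, 49, 52 and 56, against 43.9, 1761 and 3666 CPM as lowest, median and highest in OPCs. It was read in all 16 OPCs, newly formed cells 52 and 56 alone lay above every OPC, and the pooled levels of 5599 CPM in newly formed cells and 1774 CPM in OPCs gave a log2 ratio of 1.66. Its span, chr18:31942999-31949890, overlaps Lims2, a gene of the same marker list, and since the strand setting of the counting is not given in the sources used here, reads of that pair cannot be told apart. Bcas1 (chr2:170343973-170427911), a protein of premyelinating and early myelinating cells, had 1434, 2514, 1474, 1909 and 3270.1 CPM in newly formed cells, against 0, 50.1 and 2358 CPM as lowest, median and highest in OPCs. The log2 ratio of Bcas1 was 2.77 against all OPCs and 1.89 within P12 visual cortex, where OPC 21 held the highest value of any OPC. Outside both groups, 4 of 312 cells reached 100 CPM of Gpr17 and 7 of 312 reached 100 CPM of Bcas1, with highest values of 342 and 3827 CPM.

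**Figure D1:**
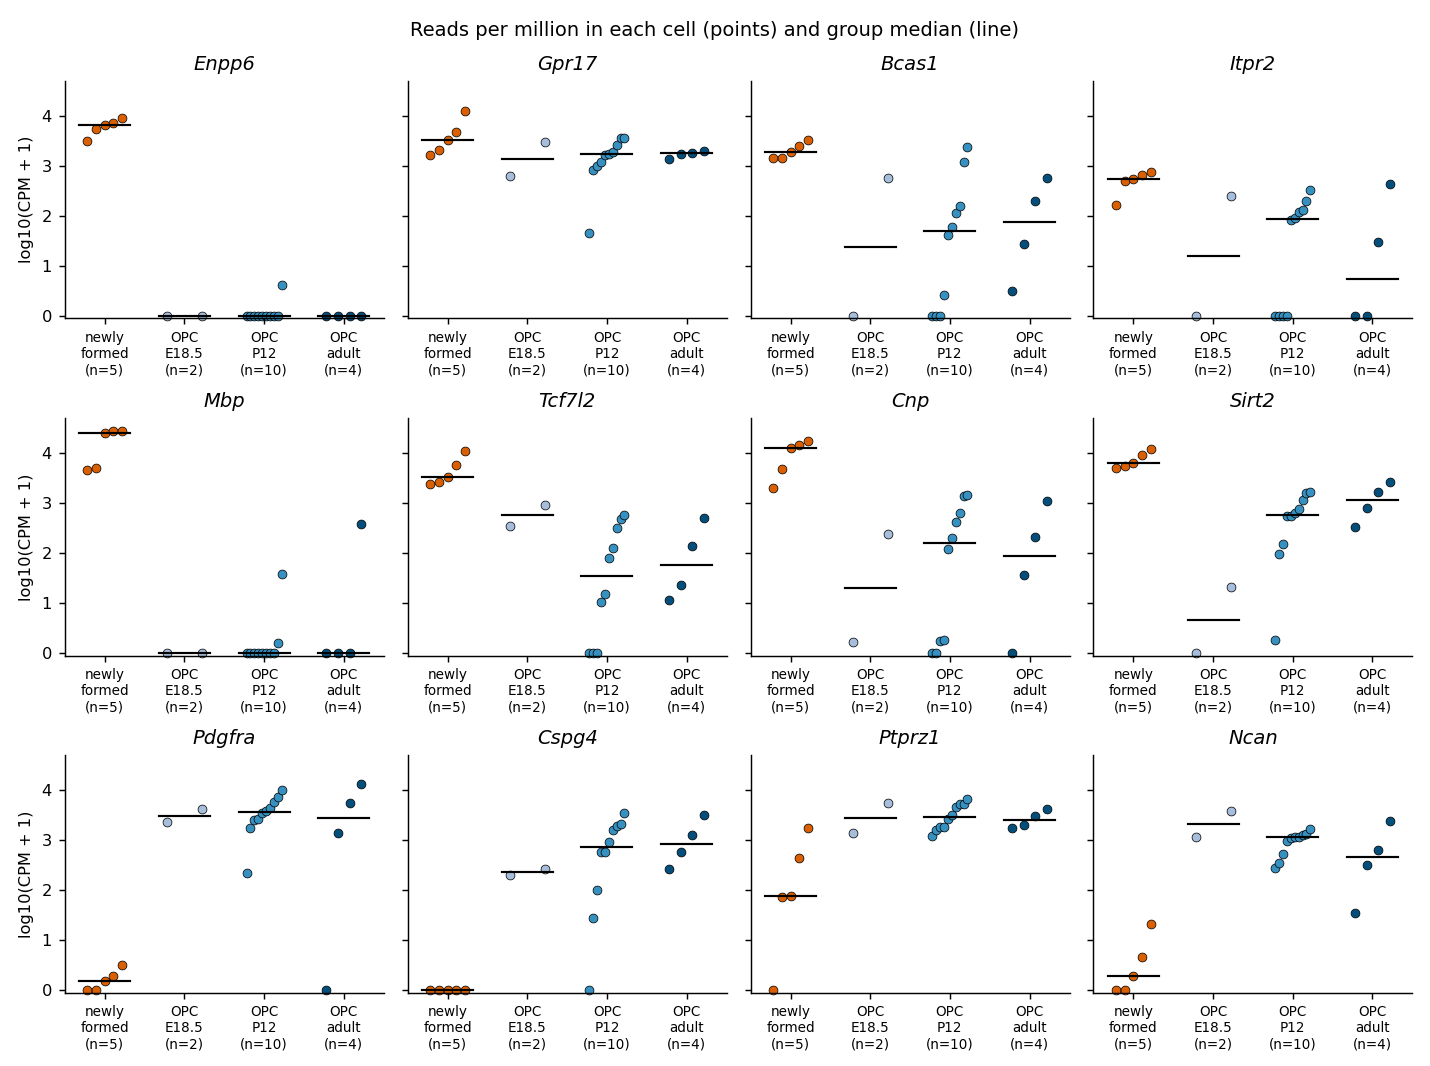
Level of 12 genes in every cell, as log10(CPM + 1), for 5 newly formed oligodendrocytes and for OPCs of E18.5 (2), P12 (10) and adult (4). Points are cells and lines are medians. Enpp6, Mbp and Tcf7l2 lie above every OPC in all 5 newly formed cells, Ncan lies below every OPC, and Gpr17 overlaps.

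The other genes listed as markers of the stage were mostly higher in newly formed cells. Genes with a pooled level of at least 10 CPM in one group or the other are termed measured, and a measured gene is called higher or lower where the pooled levels differed at least 4-fold and still at least 2-fold whichever single cell was left out. Of 28 listed markers 27 were measured, and 18 (66.7%) were called higher and none lower, with a median log2 ratio of 2.81. Over all 8550 measured genes, 773 (9.04%) were called higher and 2188 (25.6%) lower, with a median of -0.83. Scaling by trimmed mean of M values would add up to 0.20 to log2 ratios against all OPCs, and median-of-ratios scaling up to 0.29, less for genes low in newly formed cells. All 27 measured markers had a log2 ratio above 0, as low as 0.49 for Tmem163. The list was drawn up from genes known for this stage, with earlier results of these cells known, so the count describes the labels and is not independent evidence.

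Among these markers, Fyn, a Src-family kinase that acts in process outgrowth, had 2317, 5296, 4465, 8962 and 5417 CPM in newly formed cells 13, 40, 49, 52 and 56, against 0, 109 and 12648 CPM in OPCs. The highest OPC value was that of adult OPC 51, and the highest among P12 OPCs was 624 CPM. The log2 ratio of Fyn was 3.59 against all OPCs and 5.30 against P12 OPCs. Adult OPC 51 was also the OPC with the most Neu4, a sialidase, at 15302 CPM, and the most Bmp4, a secreted BMP ligand, at 3232 CPM. Bmp4 had 23.4, 2.76, 1.48, 429.7 and 341 CPM in newly formed cells 13, 40, 49, 52 and 56, and its log2 ratio was 1.58 against all OPCs, 6.56 without OPC 51 and 6.15 against P12 OPCs. Neu4 had 32.1, 296, 51.1, 1907 and 2747 CPM in newly formed cells, with a log2 ratio of 0.73. Cells 52 and 56 were the high ones for both genes.

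Further markers differed in how evenly the 5 newly formed cells carried them. Sirt2, a tubulin deacetylase, had 5094, 6362, 11996, 9283 and 5503 CPM in newly formed cells, against 0, 590.3 and 2608 CPM in OPCs, and no value overlapped. Nfasc, which encodes the adhesion protein neurofascin, had 3858, 3239 and 2701 CPM in newly formed cells 13, 40 and 49 but 117 and 499.7 CPM in cells 52 and 56, against 0, 0.336 and 755 CPM in OPCs, so that cells 52 and 56 lay inside the OPC range. Chn2, a Rac GTPase-activating protein, had 1519.6, 1137, 1012, 1397 and 3638 CPM in newly formed cells, against 0, 0 and 2318 CPM in OPCs and a single read over those of P12, and its log2 ratio against all OPCs was 4.68. Itpr2, a calcium release channel of the endoplasmic reticulum, had 164, 561, 647, 508 and 767 CPM in newly formed cells, against 0, 56 and 438 CPM in OPCs, and a log2 ratio of 2.31. Cell 13 was the newly formed cell inside the OPC range of Itpr2. Elovl7, a fatty acid elongase, Cyfip2, an actin regulator that overlaps Fndc9, and Mpzl1 had log2 ratios of 6.03, 4.47 and 3.29.

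Few genes kept the groups fully apart. In 23 of the 8550 measured genes (0.269%) every newly formed cell lay above all 16 OPCs, and in 2 (0.0234%), Ncan among them, every newly formed cell lay below all 16. This way of counting was added after the values were seen. Among the 23 were Enpp6, Mbp, St18, Nedd4l, Prickle1, Parvb, Snx30, Fam13c, Dbndd2, Cdk19, Tbc1d7, Ttyh2, Pacs2, Cnp, Tubb4a, Map1b, Lsm10, Tcf7l2, Krcc1, Sirt2, Ppp1r16b and Dpysl2. Dpysl2, which encodes the tubulin-binding protein CRMP2 and overlaps Pnma2, ran between 10977 and 31862 CPM in newly formed cells and between 229.8 and 9514 CPM in OPCs. Ppp1r16b, a regulatory subunit of protein phosphatase 1, ran between 6236 and 12488 CPM in newly formed cells and between 0 and 4809 CPM in OPCs. Both genes were well read in most OPCs, unlike Parvb, an adhesion protein that binds actin, which had 333, 221, 108, 73.8 and 58.4 CPM in newly formed cells and no read in an OPC. Against the 10 P12 OPCs alone, 48 of 8197 measured genes (0.586%) lay wholly above and 11 (0.134%) wholly below, with Pdgfra, Ednrb, Id2, Rlbp1, Ddah1, Qpct, Ncan, Cspg5 and Tmem100 among these 11.

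Myelin genes were at high levels in the newly formed cells. Mbp, which encodes myelin basic protein, had 27722, 25459.8, 27824, 4956 and 4605 CPM in newly formed cells 13, 40, 49, 52 and 56, against 0, 0 and 384 CPM in OPCs, 3 of which had a read. No OPC reached the lowest newly formed cell, and cells 52 and 56 were the low ones of the newly formed group. The log2 ratio of Mbp was 8.84 against all OPCs and 11.86 against P12 OPCs. Cnp, a phosphodiesterase of non-compact myelin, had 17511, 12596, 14430.4, 4729 and 1989 CPM in newly formed cells, against 0, 162 and 1427 CPM in OPCs, with a log2 ratio of 4.73. Its span overlaps Dnajc7.

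Several genes of mature myelin had reads in some newly formed cells and in no OPC. Mag, an adaxonal adhesion protein, had 517, 872, 329, 0 and 24.3 CPM in newly formed cells 13, 40, 49, 52 and 56 and no read in any OPC, which made it at least 2074-fold higher against a floor of 3 reads over the OPC group. Mog, on the outer surface of myelin, had 0, 372, 16.3, 0 and 421 CPM, and Mobp, a basic protein of myelin, had 138, 60.7, 579.6, 0 and 0.811 CPM in newly formed cells, both without a read in OPCs. Tppp, a tubulin polymerising protein, had 1430.5, 1071, 2949, 0 and 1.62 CPM in newly formed cells and none in OPCs, at least 6922-fold higher. Cell 52 thus lacked reads of Mag, Mog, Mobp and Tppp while holding 4956 CPM of Mbp. Cldn11, which encodes the tight junction protein of myelin, had 2040.5, 1588, 849.9, 63.2 and 739.9 CPM in newly formed cells and reads in 1 OPC, at 471 CPM. Enpp2, a lysophospholipase that makes lysophosphatidic acid, was read in all cells of both groups, with 1994, 1442, 1129, 3334 and 4966 CPM in newly formed cells, against 58.1, 917 and 2427 CPM in OPCs, a log2 ratio of 1.43. Of 39 listed myelin genes 26 were measured, with 14 (53.8%) called higher and 2 (7.69%) lower, beside 9.04% and 25.6% of all measured genes, and a median log2 ratio of 3.58. The 2 lower ones were Gjb1, a gap junction protein, and Anln, an actin-binding protein of the cytoskeleton that overlaps 9530077C05Rik, neither of which had a read in a newly formed cell.

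**Figure D2:**
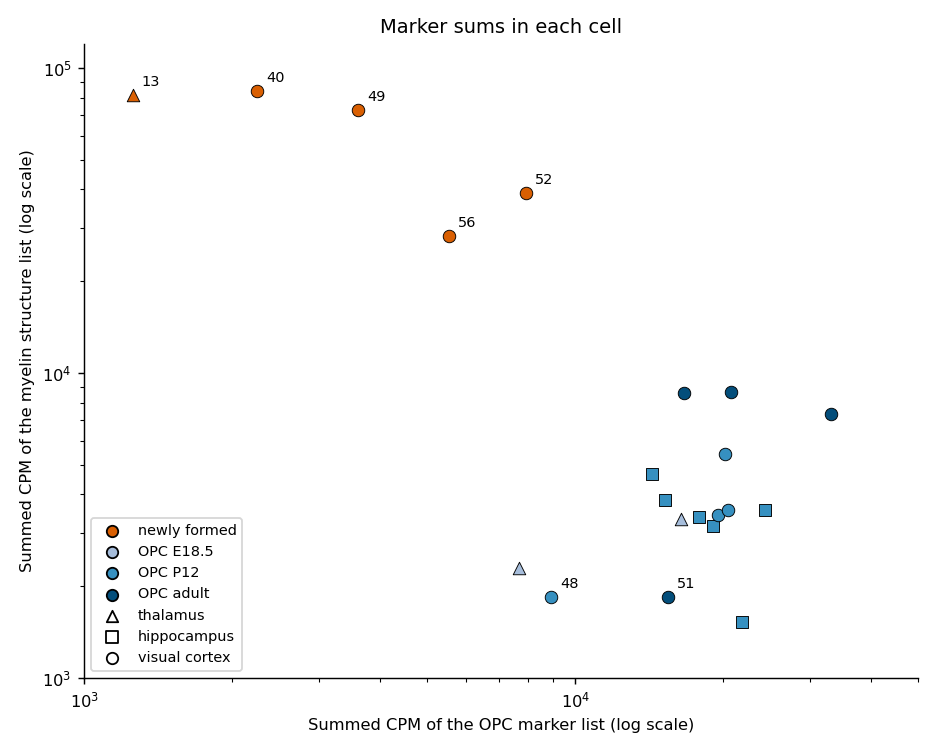
Summed CPM of the myelin structure list against summed CPM of the OPC marker list for each of the 21 cells, both axes on log scales. Colours give the group and age, shapes the region, and numbers mark the newly formed cells and OPCs 48 and 51. Newly formed cells hold 28248 to 84051 CPM of myelin genes and OPCs 1527 to 8674 CPM.

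OPC genes were lower in newly formed cells, many of them to the limit of detection. Pdgfra had 2.19, 0.919, 0, 0.502 and 0 CPM in newly formed cells 13, 40, 49, 52 and 56, against 0, 3644 and 13192 CPM as lowest, median and highest in OPCs and 221 to 9950.1 CPM in those of P12. The groups overlapped only through adult OPC 51, which had no Pdgfra read. The pooled levels were 0.711 CPM in newly formed cells (5 reads) and 4899.5 CPM in OPCs, a log2 ratio of -11.48. Cspg4 had no read in any newly formed cell and 0, 584 and 3574 CPM as lowest, median and highest in OPCs, of which 15 had reads. It was at least 2228-fold lower in newly formed cells. Rlbp1, Matn4, Pcdh15, Myt1 and C1ql1 of the same list also had no read in the 5 newly formed cells.

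Of 28 listed OPC markers 26 were measured, with 21 (80.8%) called lower and none higher and a median log2 ratio of -5.38, or -6.36 with genes lacking reads in newly formed cells set at the floor. This stands beside the 25.6% called lower over all measured genes. Members that were not called were Vcan, Tnr, Sox6, Dscam and Emid1. Vcan, the proteoglycan versican, had 159, 287, 985, 3071 and 2723 CPM in newly formed cells, against 3.38, 1051 and 5254 CPM in OPCs, a log2 ratio of 0.25. Tnr, the matrix protein tenascin-R, had 647, 1549, 2471, 788 and 969 CPM in newly formed cells, against 0 to 5819 CPM in OPCs, a log2 ratio of 1.18. All 5 newly formed cells lay inside the OPC range for both genes. Ptprz1, a receptor phosphatase, had 0, 74.4, 73.3, 1719 and 447 CPM in newly formed cells, against 1212, 2867 and 6784 CPM in OPCs, a log2 ratio of -2.53. Among newly formed cells only cell 52 reached the OPC range of Ptprz1.

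**Figure D3:**
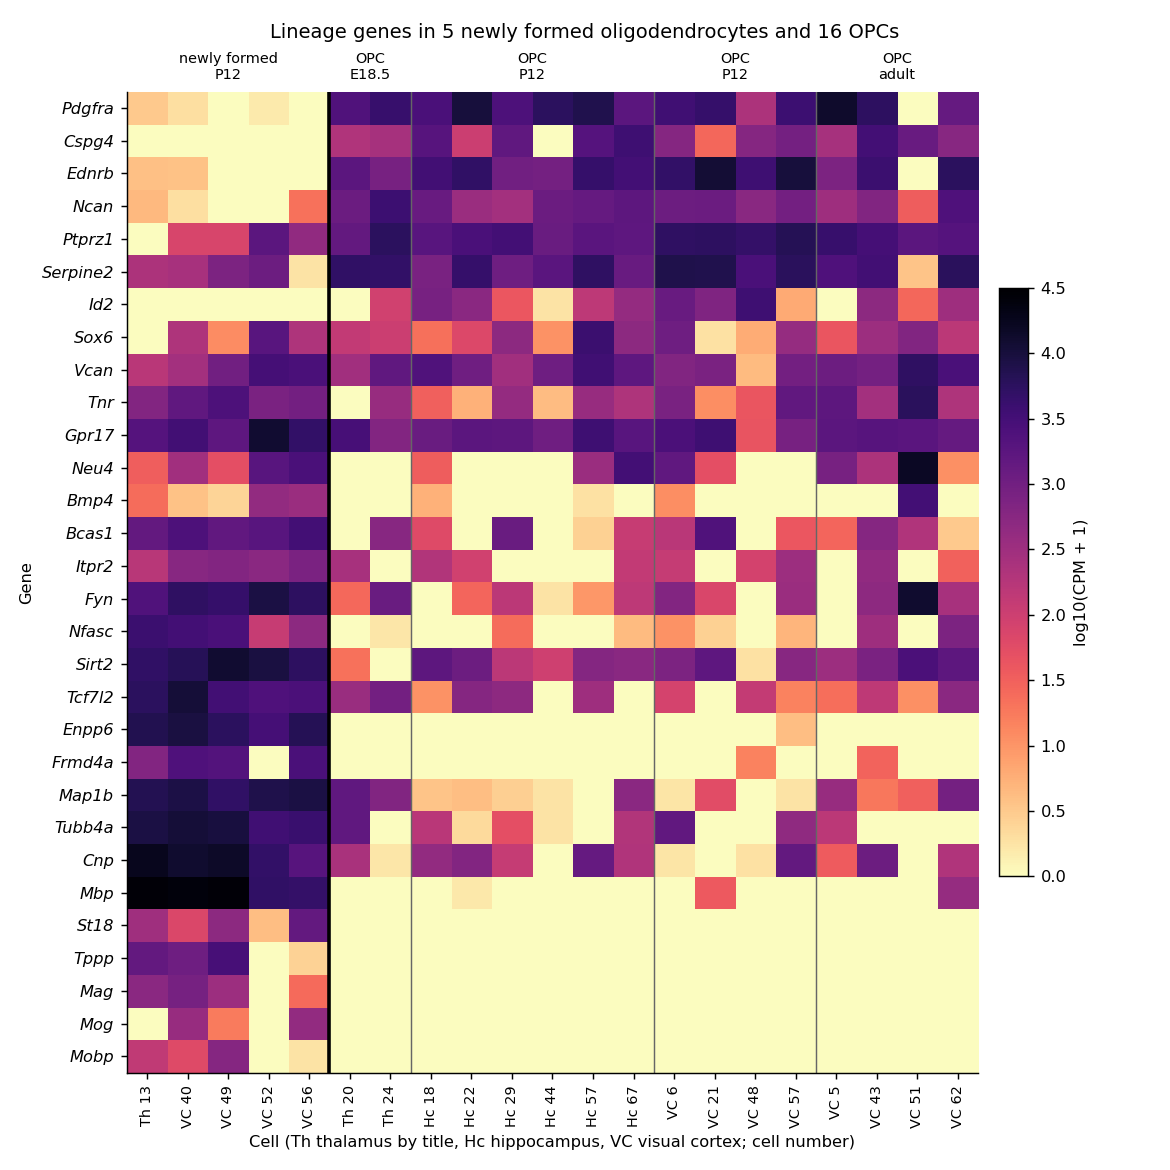
Level of 30 lineage genes (rows) in 5 newly formed oligodendrocytes, left of the heavy line, and 16 OPCs by age and region (columns), as log10(CPM + 1). Pdgfra and Cspg4 have reads in 15 of the 16 OPCs and Cspg4 in no newly formed cell, Vcan and Gpr17 are read in both groups, and St18, Mag, Mog and Mobp have reads in newly formed cells and in no OPC.

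Transcription factors of differentiation differed in both directions against all OPCs. Tcf7l2, a Wnt pathway factor of the premyelinating stage, had 5676, 10918, 3341, 2421 and 2662 CPM in newly formed cells 13, 40, 49, 52 and 56, against 0, 102 and 934 CPM in OPCs, a log2 ratio of 4.20. St18, a zinc finger factor, had 300.3, 68.9, 505, 3.01 and 1429 CPM in newly formed cells and no read in any OPC, at least 2859-fold higher. Myrf, the master regulator of myelin genes, had 132, 60.7, 118, 0.502 and 112 CPM in newly formed cells and a read in 1 OPC, at 169 CPM. Its log2 ratio was 2.70 against all OPCs and 1.99 against P12 OPCs, where it was not called. Zfp488, Zfp365 and Carhsp1 were called higher at 3.01, 2.28 and 4.13. Sox10, which marks the whole lineage, had 381, 203, 596, 545 and 532 CPM in newly formed cells, against 0, 194 and 597 CPM in OPCs, and its log2 ratio of 1.12 was not called.

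Olig1, a lineage factor of OPCs and oligodendrocytes, was called lower, with 56.3, 8.27, 152, 13.6 and 34.1 CPM in newly formed cells, against 0, 138 and 2874 CPM in OPCs, a log2 ratio of -3.32. Within P12 visual cortex its ratio of -1.63 was not called. Its partner Olig2 had pooled levels of 42.4 CPM in newly formed cells and 84.4 CPM in OPCs and was not called, with a log2 ratio of -0.98. Within P12 visual cortex Olig2 was called higher, with a log2 ratio of 3.41. Of 20 listed differentiation factors 17 were measured, with 6 (35.3%) called higher and 3 (17.6%) lower (Olig1, Yy1 and Chd7) and a median of 1.10. Over all measured genes 9.04% were called higher and 25.6% lower, so the share called lower was below that of all genes. Against P12 OPCs, where 12.5% of all measured genes were called higher and 20.8% lower, 5 of 17 were higher and 1, Olig1, lower, with a median of 1.03. Within P12 visual cortex, where the shares of all genes were 17.8% and 12.5%, 9 of 17 were higher and none lower, with a median of 3.41. Against all OPCs, of 9 measured genes that mark the whole lineage, 2 (22.2%), Cnp and Cldn11, were called higher and 1 (11.1%), Olig1, lower, with a median of 1.10. Of 28 factors listed as holding cells in the precursor state 20 were measured, with 1 called higher and 12 (60%) lower and a median of -3.61. This share called lower stands beside the 25.6% of all measured genes. Id2, which sequesters helix-loop-helix factors, had no read in newly formed cells and 0, 232 and 3682 CPM as lowest, median and highest in OPCs. Sox9, Etv1, Etv5 and Myc had no read in newly formed cells either. Nfib, a nuclear factor I protein, was read in all 5 newly formed cells, at 17.5, 35.8, 0.740, 189 and 0.811 CPM, and its log2 ratio was -4.43. The 1 higher factor was Sox2, with 27, 79, 47.4, 4.02 and 42.2 CPM in newly formed cells, against 0, 0 and 23.9 CPM in OPCs.

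Receptors for growth signals differed in both directions. Ednrb, the endothelin receptor B, had 2.92, 2.76, 0, 0 and 0 CPM in newly formed cells, against 0, 3486 and 11114 CPM in OPCs, a log2 ratio of -10.92. Ntrk2, a neurotrophin receptor, and Lifr, the receptor of leukaemia inhibitory factor, were called lower at -5.59 and -3.76. Fgfr1, an FGF receptor, had no read in newly formed cells and was at least 347-fold lower. Gpr56, an adhesion receptor, had 2 reads over the newly formed cells and was lower by 1157-fold (95% counting interval 320.1 to 9555). Lpar1, a lysophosphatidic acid receptor, had 1297, 489.8, 799.5, 0 and 0 CPM in newly formed cells 13, 40, 49, 52 and 56 and a single read in 1 OPC. Fgfr2, a further FGF receptor, had 123, 46.9, 22.9, 0 and 63.3 CPM in newly formed cells and reads in 1 OPC, at 10.1 CPM, a log2 ratio of 4.79. S1pr5, a sphingosine-1-phosphate receptor, and Gpr37, a receptor of the oligodendrocyte lineage, had no read in OPCs and were at least 254-fold and 367-fold higher. Thra, a thyroid hormone receptor that overlaps Nr1d1, and Plxnb3, a plexin, were also called higher, at 2.29 and 4.81. Over the list, 24 of 36 genes were measured, 6 (25%) were called higher and 9 (37.5%) lower, and the median was -1.47. The shares of all measured genes were 9.04% and 25.6%.

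Neurotransmitter receptors and ion channels were mostly lower. Of 49 listed genes 33 were measured, with 23 (69.7%) called lower and 1 (3.03%) higher and a median log2 ratio of -4.11, or -5.12 with genes lacking reads set at the floor. Over all measured genes 25.6% were called lower and 9.04% higher. Gria2, the AMPA receptor subunit that limits calcium entry, was not called, with 70.9 to 2772 CPM in newly formed cells, against 0, 860 and 3950.0 CPM in OPCs, a log2 ratio of -0.86. Its fellow subunits Gria3 and Gria4 were called lower, at -2.86 and -2.69, and so was Gria1, with 1 read over the newly formed cells and a level lower by 1198-fold (95% counting interval 215 to 47343). Gria4 was not called against P12 OPCs, at -0.38, or within P12 visual cortex, at 0.25. The sodium channel gene Scn1a had no read in newly formed cells and was at least 110.0-fold lower, and Scn3a, with 1 read, was lower by 2199-fold (95% counting interval 395 to 86886). Cacng4, an AMPA receptor auxiliary subunit, had reads in all 16 OPCs and in 1 newly formed cell, cell 52. Grm5, Grik1, Gabrb2, Kcnd3 and Kcnj16 had no read in the newly formed cells, and of these Kcnj16 was not called against P12 OPCs. Kcnj10, the inward rectifier potassium channel of glia, had 175, 75.4, 0.740, 274 and 610.1 CPM in newly formed cells, against 0, 2.07 and 3007 CPM in OPCs, a log2 ratio of -0.06. The 1 channel called higher was the potassium channel gene Kcna2, at 3.44.

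Genes of the extracellular matrix differed from one to the next. Ncan, the proteoglycan neurocan, had 3.65, 0.919, 0, 0 and 20.3 CPM in newly formed cells, against 33.6, 1140.0 and 3821 CPM in OPCs, a log2 ratio of -7.80. Cspg5, a membrane proteoglycan, and Serpine2, a secreted protease inhibitor, had log2 ratios of -7.18 and -2.89. Bcan, the proteoglycan brevican, had 810.2, 408, 428, 166 and 391 CPM in newly formed cells, against 0, 493 and 3826 CPM in OPCs, a log2 ratio of -1.24 that was not called. Of 45 listed genes 38 were measured, with 20 (52.6%) called lower and 3 (7.89%) higher (Col11a2 and Dag1 among them) and a median of -4.39. The shares of all measured genes were 25.6% lower and 9.04% higher.

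Cell cycle genes were low in all 5 newly formed cells and in several OPCs. The summed level of 40 listed genes was 503 to 2110.3 CPM in newly formed cells and 414 to 18283 CPM in OPCs, with medians of 1318 and 2928 CPM. Several OPCs lay inside the newly formed range, among them P12 visual cortex OPCs 21 and 57 at 1431 and 1798 CPM. Ccnd1, the cyclin that carries growth factor signals into the cycle and overlaps LTO1, had no read in newly formed cells and 0, 93.1 and 1717 CPM as lowest, median and highest in OPCs. Mcm2, Mcm3, Mcm5, Rrm2 and Tpx2, of DNA replication and the spindle, had no read in newly formed cells and reads in 3 to 5 OPCs each. Of 23 measured genes 15 (65.2%) were called lower, beside 25.6% of all measured genes, and none higher, with a median of -5.19. Within P12 visual cortex 1 of 15 (6.67%), Ccnd1, was called lower and 1, Mcm7, which overlaps Ap4m1, was called higher. The shares of all measured genes there were 12.5% lower and 17.8% higher. The list median of -3.52 was -0.17 without OPC 48, over the members then still measured. Among 9 measured inhibitors of the cycle 2 (22.2%) were called lower, Btg2 and Gas1, a share close to the 25.6% of all measured genes. Cdkn1b, which holds OPCs out of the cycle, had a log2 ratio of 0.62.

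Lipid synthesis genes varied within the newly formed group. Hmgcs1, which makes HMG-CoA for cholesterol synthesis, had 5896, 2155, 2876, 10.5 and 11.4 CPM in newly formed cells 13, 40, 49, 52 and 56, against 0, 239 and 3775 CPM in OPCs. It was high in cells 13, 40 and 49 and low in cells 52 and 56, and its log2 ratio of 1.79 was not called. The summed list stood at 14503, 4452, 11563, 378 and 744 CPM in newly formed cells 13, 40, 49, 52 and 56. Of 24 measured genes 6 (25%) were called higher (Mvk, Pmvk, Fdft1 and Cyp51 among them) and 3 (12.5%) lower (Apoe, Srebf2 and Abca1). The median was 1.33, and the shares of all measured genes were 9.04% higher and 25.6% lower. Against P12 OPCs 4 of 25 (16%) were higher and 4 lower, beside 12.5% and 20.8% of all measured genes. Within P12 visual cortex 3 of 21 (14.3%) were higher and 3 lower, beside 17.8% and 12.5%. Pmvk and Cyp51 were not called against P12 OPCs. The list median against all OPCs was 0.53 without cell 13. Within P12 visual cortex the median was 1.19 with all cells and -0.76 without cell 49. The 3 genes called lower against all OPCs are known for lipid transport and for control of the pathway, not for a step of synthesis. Dhcr7, a gene of a synthesis step, was called lower against P12 OPCs and within P12 visual cortex. Ugt8a, which makes the myelin lipid galactosylceramide, had 4111, 3936, 2384, 2914 and 192 CPM in newly formed cells, against 0, 0 and 1602 CPM in OPCs, a log2 ratio of 3.03. Of 30 measured genes of myelin lipid synthesis 9 (30%) were called higher and 2 (6.67%) lower, beside 9.04% and 25.6% of all measured genes, with a median of 0.71. Pcyt2, of phosphatidylethanolamine synthesis, Far1, of ether lipid synthesis, and Fads1, a fatty acid desaturase, were among the higher ones at 3.05, 2.52 and 2.72.

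Cytoskeletal genes differed in both directions, with Map1b and Tubb4a on the higher side. Map1b, a microtubule-associated protein of growing processes, had 6914, 8625, 5031, 7883 and 8873 CPM in newly formed cells, against 0, 10.3 and 1532 CPM in OPCs, a log2 ratio of 4.68. Tubb4a, a beta-tubulin of oligodendrocytes, had 8768, 10799, 9619, 3508 and 4141 CPM in newly formed cells, against 0, 1.02 and 1574 CPM in OPCs, though reads may be split among tubulin paralogs and the value is uncertain to that extent. Epb4.1l2, a membrane skeleton protein, Wasf1, an actin regulator, and Kif21a, a kinesin that overlaps Gm52215, were called higher at 3.60, 2.29 and 4.62. Marcks, an actin-binding membrane protein, had 8523, 8042, 12250.3, 2278 and 5293 CPM in newly formed cells, against 816, 2833 and 5823 CPM in OPCs, a log2 ratio of 1.19 that was not called. Gap43, a growth cone protein, Cttnbp2 and Mtss1 were called lower at -6.47, -6.11 and -4.26, and Myh10, a non-muscle myosin, had no read in newly formed cells and was at least 383-fold lower. Of 73 listed genes 64 were measured, with 16 (25%) called higher and 15 (23.4%) lower, the second share close to that of all measured genes, and a median of 0.35. The summed level was 46674 to 69201 CPM in newly formed cells and 11531 to 35386 CPM in OPCs, without overlap.

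In the Wnt, BMP and TGF-beta list 18 of 41 genes were measured, 3 (16.7%) called higher (Tcf7l2, Axin2 and Sfrp1) and 7 (38.9%) lower, with a median of -0.97, beside 9.04% and 25.6% of all measured genes. Against P12 OPCs the list had 4 (25%) higher and 4 (25%) lower of 16, beside 12.5% and 20.8% of all measured genes. Within P12 visual cortex it had 3 (21.4%) higher and 2 (14.3%) lower of 14, close to the 17.8% and 12.5% of all measured genes. Its median there was -0.23 with all cells and 1.43 without OPC 6, and against P12 OPCs -0.49 with all cells and 0.53 without OPC 6. Axin2, a feedback target of Wnt signalling, had 4.38, 0, 93.3, 5.52 and 0.811 CPM in newly formed cells and reads in 1 OPC, at 6.71 CPM. Ctnnb1, which encodes beta-catenin, was called lower at -4.50. In the Notch list 10 of 22 genes were measured and 4 (40%) were called lower (Jag1, Dner, Numb and Cntn1), beside 25.6% of all measured genes. None was called higher, the median was -2.54, and Numb was not called against P12 OPCs. Cntn1, an adhesion protein of glia and axons, had 739, 1743, 852, 101 and 0 CPM in newly formed cells, against 0, 3843 and 9805 CPM in OPCs.

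**Figure D4:**
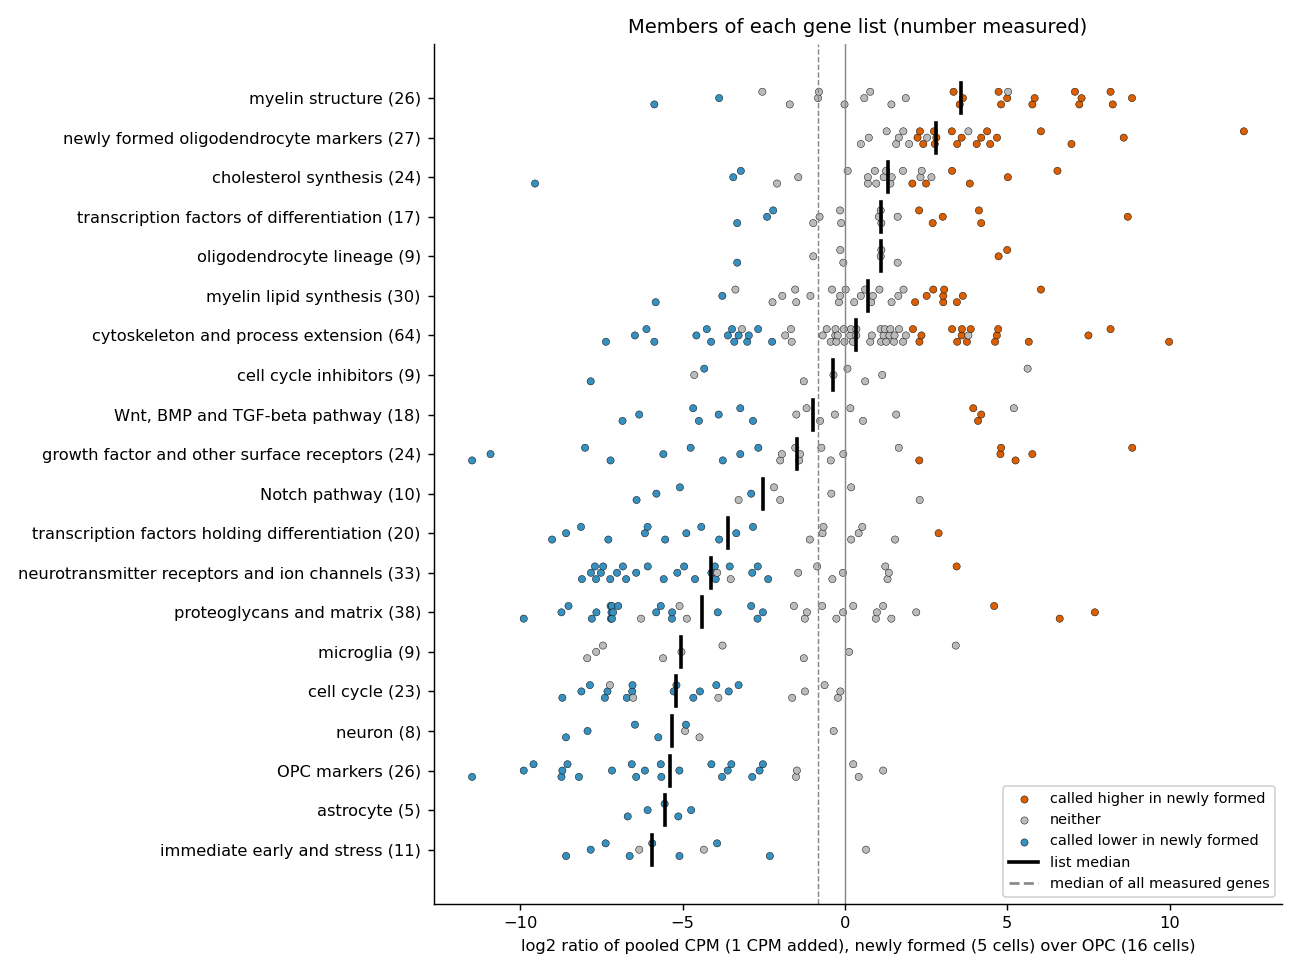
Log2 ratio of pooled CPM (1 CPM added) in 5 newly formed cells over 16 OPCs for the measured members of the gene lists. Black bars are list medians and the dashed line is the median of all measured genes, -0.83. Newly formed markers have a median of 2.81 and myelin genes one of 3.58, and OPC markers one of -5.38.

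Markers of other classes and of cell stress differed between the groups as well, and their part in these results was not tested. Summed astrocyte markers were 4.06 to 136 CPM in newly formed cells and 7.75 to 5404 CPM in OPCs, and the 5 measured of 12 members were all called lower. The defining astrocyte markers Gfap, Aqp4 and Aldh1l1 had pooled levels of 0, 4.83 and 0 CPM in newly formed cells and 0.146, 2.04 and 0 CPM in OPCs. Summed neuron markers were 0 to 40.9 CPM in newly formed cells and 0 to 4691 CPM in OPCs, with 5 of 8 measured members called lower. Immediate early and stress genes summed to 56.3 to 331 CPM in newly formed cells and 43.5 to 14307 CPM in OPCs, with 8 of 11 measured members called lower. Beside the counts of these lists stand the 25.6% of all measured genes called lower. Fos had 7.31, 10.1, 0.740, 2.01 and 0.811 CPM in newly formed cells, against 0, 501 and 3152 CPM in OPCs. The microglia list was carried by single cells: its median log2 ratio was -5.04 with all cells and 4.98 without OPC 48, when fewer than 3 members were still measured, and none of 9 measured members was called. Newly formed cell 56 had 559.8 CPM of microglia markers. No endothelial marker was measured, with sums of 0 to 5.68 CPM in newly formed cells and 0 to 403 CPM in OPCs. The pericyte list had 2 measured members, of which Cspg4 is also an OPC gene and Lum was read in 1 OPC.

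Beyond the lists, 15 genes were named in each direction by size among genes called against all OPCs and against P12 OPCs, at a pooled 50 CPM or more and detected in at least 60% of the thinned cells of the higher group. On the higher side 347 genes met these conditions and the 15 were Enpp6, Tppp, Mob3b, Lpar1, Mbp, St18, Frmd4a, Bfsp2, Nedd4l, Tpd52, Mag, Sept4, Vps33a, Ankib1 and Cdh11. Bfsp2, an intermediate filament protein known from the eye lens, had 224, 881, 891, 0 and 0 CPM in newly formed cells 13, 40, 49, 52 and 56 and no read in OPCs, at least 2405-fold higher. Nedd4l, a ubiquitin ligase, had 16.1, 70.8, 8.14, 1292 and 402 CPM in newly formed cells and reads in 1 OPC, at 6.15 CPM, a log2 ratio of 8.35. Cdh11, a cadherin, had 2128, 3472, 334, 0 and 0 CPM in newly formed cells and at most 38.6 CPM in OPCs. Ankib1, a ubiquitin ligase, had 80.4, 20.2, 0, 50.2 and 1308 CPM in newly formed cells and a single read in OPCs. The cells that carried these genes thus differed: Bfsp2, Cdh11, Mob3b and Sept4 had no read in cells 52 and 56, while Nedd4l and Vps33a were highest in cell 52. Mob3b overlaps Ifnk.

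On the lower side 149 genes met the conditions and the 15 were Pdgfra, Ednrb, Cspg4, Spry4, Dpysl3, Qpct, Lrrtm4, Rlbp1, Apoe, Ddah1, Usp37, Kcnip3, Id2, Chl1 and Ldhb. Spry4, a feedback inhibitor of receptor tyrosine kinase signalling, had no read in newly formed cells and 0, 439.8 and 3688 CPM as lowest, median and highest in OPCs. Dpysl3, a relative of Dpysl2 with the opposite direction, had a single read in newly formed cells and 0, 345 and 5318 CPM in OPCs. Lrrtm4, a synaptic organiser, had no read in newly formed cells and 0, 810.3 and 2388 CPM in OPCs. Qpct, a glutaminyl cyclase, and Ddah1, which degrades methylated arginine, had no read in newly formed cells and reads in 15 OPCs each. Apoe, a lipid carrier that astrocytes also make, had a single read in newly formed cells and 0, 119 and 3899.9 CPM in OPCs. Usp37 overlaps Cnot9, Plcd4 and Vil1.

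Restriction by age and region changed the balance of calls made under the condition on single cells. Against the 10 P12 OPCs, 1023 of 8197 measured genes (12.5%) were called higher and 1705 (20.8%) lower, with a median of -0.61. Within P12 visual cortex, 4 newly formed cells against 4 OPCs, 1301 of 7298 (17.8%) were called higher and 914 (12.5%) lower, with a median of -0.24, which was 0.38 without OPC 6 and -0.62 without newly formed cell 49. Without the condition on single cells, lower calls outnumbered higher ones there too, at 2481 and 2284. With the condition kept, the OPCs that carry other classes' markers, mostly of the neuron list, were left out. The counts were then 1091 higher and 1513 lower against all remaining OPCs, 1448 and 1058 against those of P12, and 1483 and 711 within visual cortex. These comparisons share the newly formed cells and part of the OPCs. Of the 773 genes called higher against all OPCs, 668 were also called against P12 OPCs, 511 within visual cortex and 469 in both. Of the 2188 called lower, 1490 were also called against P12 OPCs, 659 within visual cortex and 619 in both. Newly formed markers called higher numbered 20 of 27 against P12 OPCs and 17 of 26 within visual cortex, with medians of 2.81 and 4.17. OPC markers called lower numbered 21 of 26 and 17 of 24, with medians of -4.57 and -4.61. Myelin genes called higher numbered 14 of 26 and 13 of 24, with medians of 4.37 and 5.31. Channel genes called lower numbered 18 of 31 and 11 of 26, and factors of the precursor state called lower 8 of 19 and 5 of 17. Myelin lipid genes called higher numbered 9 of 29 and 4 of 27.

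The newly formed cells were also set against P12 myelinating oligodendrocytes, which came from another region, hippocampus. Of 6309 measured genes 2837 (45%) were called higher in newly formed cells and 402 (6.37%) lower, with a median log2 ratio of 3.77, beside the larger number of genes detected per cell. Scaling by trimmed mean of M values moves log2 ratios of this comparison by up to -1.67 and median-of-ratios scaling by up to -1.96, less for genes low in newly formed cells. The median was 2.26 with 2241 higher and 717 lower under the first, and 2.02 with 2081 and 772 under the second. Of 28 newly formed markers 24 were called higher and 1, Man1a, lower, with a median of 5.69. Gpr17 had 5599 CPM pooled over newly formed cells and 1.41 CPM over myelinating cells, a log2 ratio of 11.18. Enpp6 had 5959.6 CPM over newly formed cells and 434 CPM over myelinating cells, a log2 ratio of 3.78 that is close to the median of all measured genes. Vcan and Tnr, which were not called against OPCs, had no read and 1 read over the 15 myelinating cells, and Vcan was at least 29415-fold higher in newly formed cells. Marcks had 6829 CPM over newly formed cells and 0.183 CPM over myelinating cells. Of 34 measured myelin genes 3 were called higher and 19 lower, with a median of -2.88.

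The myelin genes did not share one course over the stages. Mbp was at 3.54 CPM pooled over P12 OPCs, 16891 CPM over newly formed cells and 1858 CPM over P12 myelinating cells. Of those 15 myelinating cells 11 reached 100 CPM of Mbp, with a highest value of 7044 CPM. All 6 myelinating cells of adult visual cortex reached 100 CPM, with a highest value of 20457.5 CPM. The lower pooled level thus describes the P12 hippocampus cells and not the myelinating stage as such. Mog, Mobp and Sept4 were called lower in newly formed than in myelinating cells, at -3.54, -2.42 and -2.66, and so were Car2, a carbonic anhydrase, at -9.59 and Gsn, an actin-severing protein, at -6.98. Mag, Tppp, Cnp, Cldn11 and Ugt8a were not called, at -1.31, -0.69, -0.15, 0.16 and -0.02. Lpar1, with a single read over all OPCs, had 482 CPM pooled over newly formed cells and 7945 CPM over myelinating cells. The deposited table counts whole genes, so splice forms of Mbp were not analysed here.

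**Figure D5:**
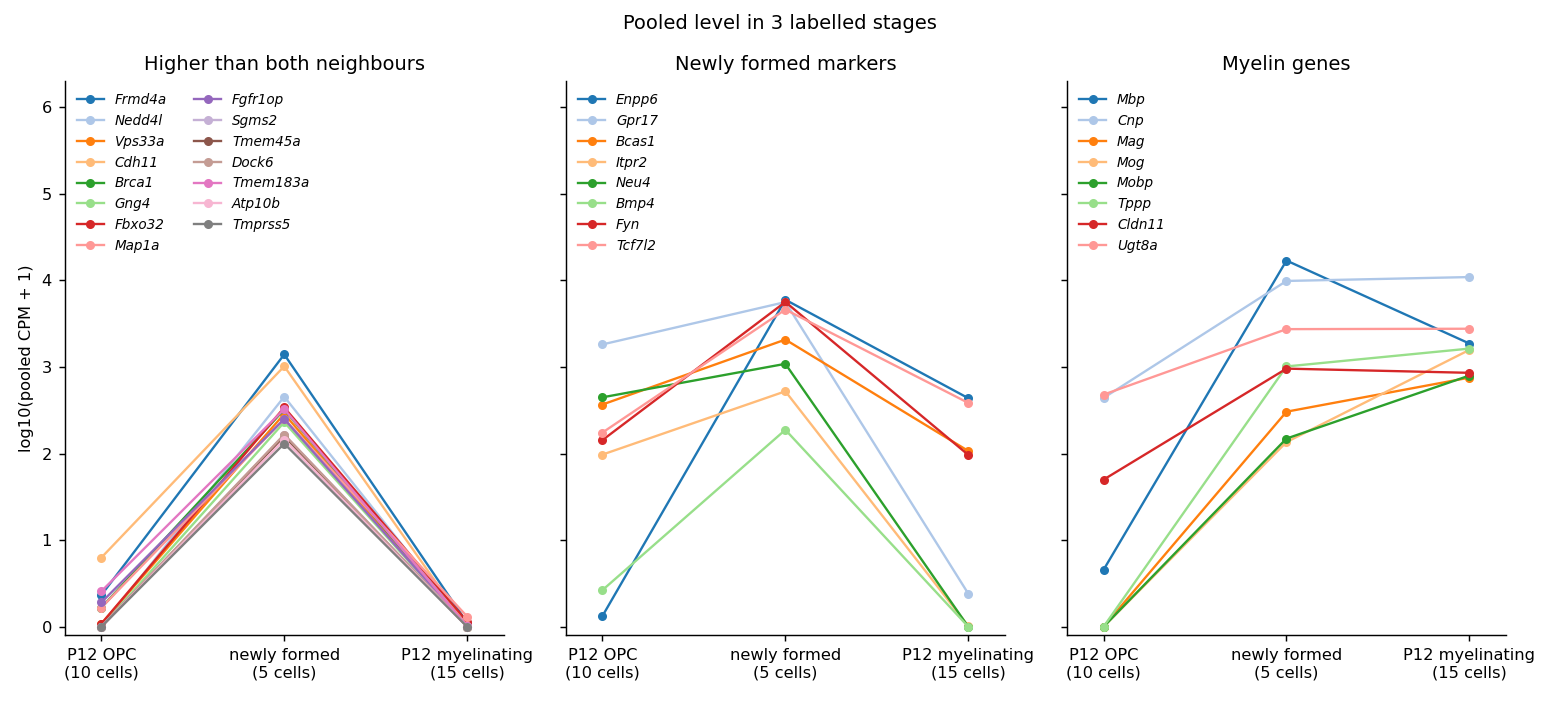
Pooled level, as log10(CPM + 1), in P12 OPCs (10 cells), newly formed oligodendrocytes (5) and P12 myelinating oligodendrocytes (15), for genes named as higher than both neighbours, markers of the newly formed stage and myelin genes. Enpp6 is highest in newly formed cells, Gpr17 is at 1.41 CPM in myelinating cells, and Mog and Mobp are highest in myelinating cells.

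Against myelinating cells, which held fewer detected genes, 45% of all 6309 measured genes were called higher in newly formed cells. Among the 773 genes called higher than in all OPCs, 554 were also called higher than in myelinating cells, and 275 met the conditions on level and detection on both sides. The 15 named from these were Frmd4a, Nedd4l, Vps33a, Cdh11, Brca1, Gng4, Fbxo32, Map1a, Fgfr1op, Sgms2, Tmem45a, Dock6, Tmem183a, Atp10b and Tmprss5. Frmd4a, a scaffold of cell polarity, had 648, 2389, 2185, 0 and 2719 CPM in newly formed cells 13, 40, 49, 52 and 56, and its pooled level of 1392 CPM stood against 2.63 CPM in OPCs and 0.110 CPM in myelinating cells. Gng4, a G protein gamma subunit, had 215, 0, 59.2, 38.1 and 942 CPM in newly formed cells and no read in either neighbour. Fbxo32, a ubiquitin ligase subunit known from muscle wasting, had 358, 1136, 486, 0 and 0 CPM in newly formed cells. Each of these genes was missing from at least 1 of the 5 newly formed cells. Sgms2, a sphingomyelin synthase, had 677, 21.1, 68.1, 0 and 84.4 CPM in newly formed cells and no read in OPCs. Tmem183a rested on cell 52 with 1128 CPM, and its log2 ratio of 7.30 was 1.90 without that cell. No one newly formed cell carried all 15, and 2 members, Nedd4l and Map1a, were read in all 5, Map1a at 407, 259, 5.92, 387 and 115 CPM. Map1a overlaps Ppip5k1 and Trp53bp1, and Dock6 overlaps Angptl8.

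The 5 newly formed cells were not alike. Cells 13, 40 and 49 had myelin gene sums of 81644, 84051 and 72695 CPM and OPC marker sums of 1254, 2251 and 3609.7 CPM. Cells 52 and 56 had myelin sums of 38816 and 28248 CPM and OPC marker sums of 7945 and 5538 CPM. The summed level of newly formed markers was 40742, 56428, 44773, 48964 and 52765 CPM in cells 13, 40, 49, 52 and 56, without that split. Sox6 and Sox5, factors of the precursor state, had 1865 and 993 CPM in cell 52, against at most 215 and 0 CPM in the other four. Nfia, a further factor of that list, had 78.2, 94.7, 0.740, 2191 and 70.6 CPM in the 5 newly formed cells. The 4 OPC markers Cacng4, Susd5, Nxph1 and Cspg5 had reads in cell 52 and in no other newly formed cell. With 5 cells from an unknown number of mice, these differences describe these libraries.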

How the data were processed

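Single cells were FACS-enriched, captured on a Fluidigm C1 device, reverse transcribed from polyA RNA with SMARTer and made into Nextera XT libraries without molecular identifiers, per the labels' protocols. The authors deposited unnormalized read counts for each gene and cell, made with STAR and HTSeq 0.6.0 on mm10 per the submitters' processing notes. The sources used here give neither the annotation nor the strand setting. Of 22074 table genes 21274 matched a RefSeq symbol, 744 a synonym and 56 kept the name given. Every column used matched 1 cell by its label.

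Each group's counts were added up and scaled to CPM, and 1 CPM was added to both levels before taking log2 ratios. A gene was measured at 10 CPM or more in either group and called at 4-fold overall and 2-fold without any single cell. Poisson intervals are exact, at 95%. A gene without reads was set against 3 reads over the group. Detection was compared in cells thinned to 850000 reads. Named genes were the 15 with the largest ratio per direction among called genes (against all OPCs and those of P12, or against all OPCs and myelinating cells) at 50 CPM or more, with a read in 60% or more of the cells and 30 points more than in the other group, without ribosomal protein, predicted and numbered genes; members of the lists could be named too. Members, lists and rules were chosen with earlier results of these data known. Of 615 entries in 22 lists, 6 found no match in the table. Other libraries left out, thresholds and scalings were tried as alternatives. Tools were Python 3.11.15, numpy 2.4.6, pandas 2.3.3, scipy 1.17.1, matplotlib 3.10.9, R 4.3.3, edgeR 4.0.16 and DESeq2 1.42.0 (the last 2 for scaling factors alone). The steps were tested on simulated data. No doublet caller was run. Some single genes are not reported here, though they count in list totals.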

Additional observations from a re-analysis of the deposited data

Results flagged for a closer look

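Each measure was checked in groups of 4 to 10 cells for a highest or lowest cell far from the others, in 60 checks. The nominal rate of about 1 in 20 flagged by chance assumes normally distributed values. A lone cell with reads among cells without any is flagged whatever its level, as for Mbp at 0.622 CPM in P12 hippocampus OPC 22. The number flagged was therefore not set against chance. The 15 that stood out fell on 10 of the 21 cells, at most 3 on a cell, and their values are given without explanation.

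Among the 4 newly formed cells of P12 visual cortex, cell 52 had a cell cycle sum of 2110.3 CPM, against 1304 to 1368 CPM in the other three, and an astrocyte marker sum of 136 CPM, against 4.06 to 21.5 CPM. Cell 56 had a microglia marker sum of 559.8 CPM, against 0.919 to 3.70 CPM in the other three.

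P12 visual cortex OPC 48 had an OPC marker sum of 8932 CPM, against 19553 to 20434 CPM in the other three, a microglia marker sum of 16623 CPM, against 1.54 to 21 CPM, and an immediate early gene sum of 14307 CPM, against 478 to 1462 CPM. In the same group OPC 57 had 3.09 CPM of Enpp6, and OPC 21 had 2358 CPM of Bcas1 and 36.7 CPM of Mbp.

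Among P12 hippocampus OPCs, cell 57 had 3560.0 CPM of Gpr17, cell 29 had 1210 CPM of Bcas1 and cell 22 had 0.622 CPM of Mbp, where the others had no Mbp read. In the adult group, OPC 51 had a newly formed marker sum of 43689 CPM, against 3348 to 6069 CPM in the other three, and a microglia marker sum of 10.3 CPM, and OPC 62 had 384 CPM of Mbp.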

How the results depend on the processing

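No paired analysis was possible because the labels tie no cell to a mouse and no result comes from a test. Alternatives were leaving out each cell in turn, dropping the condition on single cells, a minimum of 50 CPM or none, 5 CPM added in place of 1, 2-fold in place of 4-fold, the mean of single cells' CPM, 2 other scalings, leaving out cells with other classes' markers, and, chosen after seeing the data, leaving out OPCs 48 and 51. Of 1734 values of 51 named genes, 1727 kept direction and side of the threshold, 2 fell below it (Tmem183a at 1.90 without cell 52, Bcas1 at 1.89 within P12 visual cortex), 5 passed it (all Bmp4) and none reversed. Genes named by size had been chosen for large ratios that held without any single cell. Much of this agreement follows from that choice. Of 657 values of 20 list medians against all OPCs, each over at least 3 members measured under its setting, 585 stayed within their range over single cells left out, 71 moved and 1 reversed, the lineage list, at -0.051 with a minimum of 50 CPM. The values with single cells left out set that range and are part of the tally, so they could not move. The 585 therefore overstate how stable the medians were under the other settings. That tally holds no value of the microglia list without OPC 48, where fewer than 3 members were measured, and none of the other comparisons. Within visual cortex, medians of the cholesterol, Wnt and cell cycle inhibitor lists took the other sign without 1 cell. Against P12 OPCs those of the Wnt and cell cycle inhibitor lists did. Against myelinating cells those of the differentiation factor, precursor state factor, receptor, cell cycle and cell cycle inhibitor lists did. The microglia median changed sign in each of these comparisons too.

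Without the condition on single cells, the counts were 1396 higher against all OPCs, 1740 higher and 2910 lower against P12 OPCs, 2284 and 2481 within visual cortex, and 954 lower against myelinating cells. A minimum of 50 CPM gave 1434 lower against all OPCs and 1864 higher against myelinating cells. Leaving out cells with other classes' markers gave 1058 lower against P12 OPCs, and the other scalings 717 and 772 lower against myelinating cells. The cause was not tested. With 1 cell left out and no condition on single cells, higher and lower counts ran from 1297 to 1482 and 3090 to 3535 against all OPCs, 1613 to 1883 and 2714 to 3180 against P12 OPCs, 1996 to 2705 and 2141 to 2717 within visual cortex, and 3500 to 3942 and 917 to 1058 against myelinating cells. With OPCs 48 and 51 left out, 814 were higher and 2064 lower against all OPCs. Each group is a handful of cells from an unknown number of mice, reads are not molecules, and a gene without a read in 5 cells may still be expressed.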
